A study of Mus musculus with 13 samples.

Results

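The genes described here are 8 promoters and inhibitors of vascular calcification, taken as a fixed list from the 19838 genes of an amplicon panel for the mouse transcriptome. The inhibitors are Mgp, Enpp1, Abcc6, Spp1 and Tnfrsf11b, and the promoters are Alpl, Runx2 and Sox9. They were read in 13 libraries from mice aged 88 weeks on an FVBxC57BL/6 background, 6 of aorta and 7 of gastrocnemius, a calf muscle. All the mice carried Rosa26-rtTA (tg/+), the reverse tetracycline transactivator from the Rosa26 locus. The control group, called Rosa26, was labelled GFP-FOXM1dNdK-/- and gave 4 aorta and 4 muscle libraries. The other group, called dNdK, was labelled GFP-FOXM1dNdK tg/+, a transgene for FOXM1, a transcription factor of dividing cells, tagged with GFP, and gave 2 aorta and 3 muscle libraries. The promoter of that transgene, the sex of the mice and any doxycycline treatment are not given in the sources used here. Libraries are named by tissue, group and number, and the numbers count within a group.

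Calcium and phosphate are close to precipitating in body fluids, and soft tissue stays free of mineral through inhibitors. Inorganic pyrophosphate is the main small inhibitor: ENPP1 makes it from ATP outside the cell, ABCC6 supports the release of that ATP, and tissue-nonspecific alkaline phosphatase, the product of Alpl, breaks pyrophosphate down. Matrix Gla protein, from Mgp, is a vitamin K dependent protein of the vessel wall and of cartilage, and osteopontin (Spp1) and osteoprotegerin (Tnfrsf11b) are secreted proteins that restrain mineral growth and bone-resorbing cells respectively. RUNX2 and SOX9 are transcription factors of bone and cartilage cells, and vascular smooth muscle cells that calcify can switch them on.

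Levels are given as CPM, the counts scaled to library size, with library sizes adjusted by the trimmed mean of M-values (TMM), with the mean ± SD over libraries. The libraries held 3919526 to 13683952 gene counts, and the floor of detection was set at 3 counts, or 0.165 to 0.641 scaled CPM. Amplicons of different genes amplify unequally, so levels are compared between libraries and never between genes. The mixture of tissues in the samples differed. The brown fat gene Ucp1 reached 5442 ± 1455 CPM in Rosa26 aorta (n = 4) and 0.558 ± 0.185 in Rosa26 muscle (n = 4). Of 9 smooth muscle markers tested, 4 were higher in Rosa26 aorta than in Rosa26 muscle (Acta2, Actg2, Cnn1 and Myocd, 2.14-fold to 6.20-fold), 3 were lower and 2 passed in neither direction, among them Myh11 (59.9 ± 5.66 and 56.7 ± 26.7 CPM). Tagln, another defining marker, held 3 counts over all 13 libraries and could separate no tissues. The heart gene Myh6 was above 100 CPM in 3 aorta libraries, Rosa26 1, Rosa26 2 and dNdK 2, called the libraries with heart RNA. Muscle dNdK 3 had a summed level of 8 fat markers of 10361 CPM, against 275 to 818 in the other 6 muscle libraries. Foxm1 held 0 to 24 counts per library and was not higher in dNdK, but whether its amplicon reads the transgene is not given, so this checks no label. In such bulk samples, fewer cells of a type and less RNA per cell cannot be told apart.

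The members differed in how deeply they were read. Mgp was read deeply in all 13 libraries, and Alpl held at least 6.54 CPM in each. Enpp1, Spp1, Runx2 and Sox9 were read at 0 to 231 counts per library, Tnfrsf11b at 0 to 93, and Abcc6 at 0 to 2. The plot of the members' levels shows every library.

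**Figure D1:**
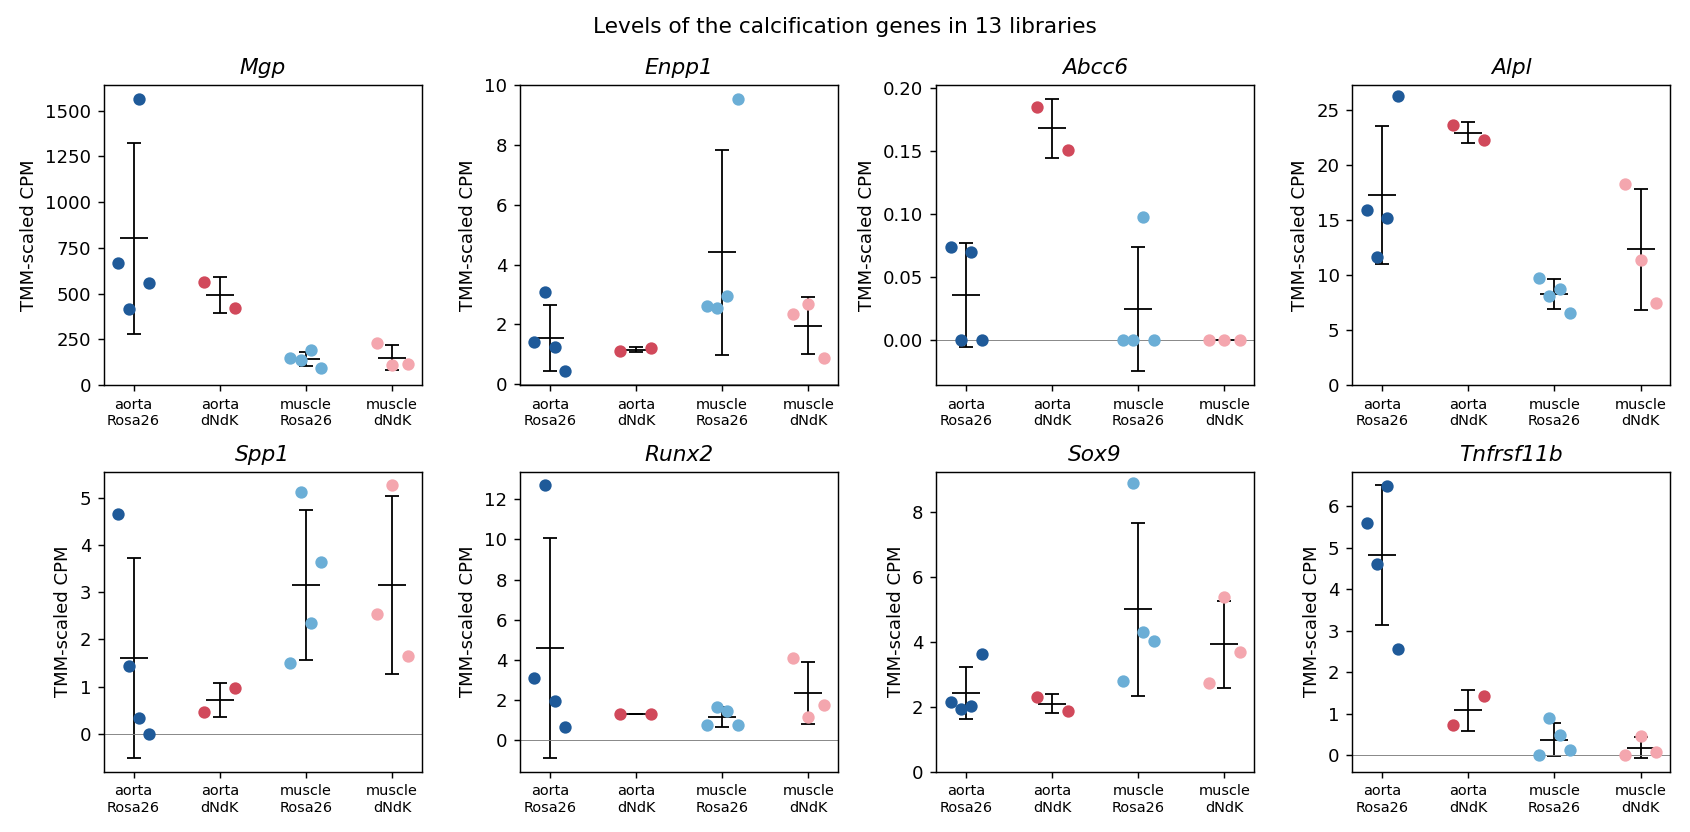
Levels of the 8 members in each of the 13 libraries, in TMM-scaled CPM on a linear axis that differs by panel; points are libraries, and the horizontal and vertical lines give the mean and SD of each group. Mgp is higher in all 6 aorta libraries (413 to 1566) than in the 7 muscle libraries (94.4 to 231), and Tnfrsf11b is lower in the 2 dNdK aortas (0.737 and 1.43) than in the 4 Rosa26 aortas (2.56 to 6.49).

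Mgp, on chromosome 6 (136872435 to 136875823, minus strand, GRCm38.p6), was higher in aorta than in muscle. In Rosa26 aorta the 4 libraries stood at 666, 413, 1566 and 559 CPM, and in dNdK aorta at 561 and 423 CPM. The Rosa26 muscles read 148, 138, 189 and 94.4 CPM, and the dNdK muscles 231, 107 and 112 CPM. The order of the group means was Rosa26 aorta (801 ± 520), dNdK aorta (492 ± 97.7), dNdK muscle (150.1 ± 70.1) and Rosa26 muscle (142 ± 38.9), and within each tissue the genotypes overlapped. The high mean of Rosa26 aorta came with 1 library, Rosa26 3, at 1566 CPM. No aorta library overlapped with a muscle library. In the Rosa26 mice Mgp was 5.65-fold higher in aorta (log2 difference 2.50, SE 0.42, adjusted p = 0.000564, edgeR quasi-likelihood test), and 1.93 without aorta Rosa26 3 (adjusted p = 3e-04). In the dNdK mice it was 3.28-fold higher (log2 1.72, SE 0.44, edgeR adjusted p = 0.0473). That second call was lost when aorta dNdK 1, aorta dNdK 2, muscle dNdK 2 or muscle dNdK 3 was left out (edgeR adjusted p = 0.243, 0.165, 0.132 and 0.0568).

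Enpp1 and Alpl are the source and the sink of extracellular pyrophosphate. Enpp1 lies on chromosome 10 (24637914 to 24712159) and Alpl on chromosome 4 (137741731 to 137796384), both on the minus strand. The 250 bases before their outermost annotated starts are shown because these 2 enzymes carry the only ratio tested, with Spp1, a known target gene of RUNX2, beside them. Sequences are RefSeq's, GRCm38.p6, 5′ to 3′ on the strand of the gene, at chr10:24712160-24712409 (Enpp1), chr4:137796385-137796634 (Alpl) and chr5:104434861-104435110 (Spp1). Capitals mark TGTGGT, a core of the RUNX motif, and TATAAA, each on either strand.
Enpp1: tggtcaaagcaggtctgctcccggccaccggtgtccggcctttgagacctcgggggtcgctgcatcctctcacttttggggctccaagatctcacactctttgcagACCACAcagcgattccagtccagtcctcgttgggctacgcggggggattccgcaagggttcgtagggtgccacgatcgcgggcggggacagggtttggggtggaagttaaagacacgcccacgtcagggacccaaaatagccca
Alpl: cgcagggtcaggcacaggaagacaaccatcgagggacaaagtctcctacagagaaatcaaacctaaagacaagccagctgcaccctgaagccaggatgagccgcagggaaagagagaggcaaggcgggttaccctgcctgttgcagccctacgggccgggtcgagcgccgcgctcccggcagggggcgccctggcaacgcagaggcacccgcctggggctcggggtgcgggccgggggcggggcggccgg
Spp1: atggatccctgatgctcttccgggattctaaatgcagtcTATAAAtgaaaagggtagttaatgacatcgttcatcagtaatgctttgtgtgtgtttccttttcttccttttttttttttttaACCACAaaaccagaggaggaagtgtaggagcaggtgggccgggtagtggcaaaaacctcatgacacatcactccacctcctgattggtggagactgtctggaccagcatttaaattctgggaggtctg
The RUNX core was found in Enpp1 at position -144 from the start and in Spp1 at -128, and not in this window of Alpl. Among 32851 promoter windows in RefSeq's table, 14% held it. TATAAA was found in Spp1 at -211 and is held by 12.4% of windows. The table holds 6 windows for 4 members (Enpp1, Alpl, Spp1 and Runx2). The Runx2 window, at chr17:44814628-44814877, belongs to a start inside the gene's outer bounds and held the RUNX core at -80 from that start. The window of a second Alpl start, inside the gene at chr4:137766476-137766725, held TATAAA at -192.

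Alpl was higher in aorta, with the Rosa26 libraries at 15.9, 11.7, 15.2 and 26.3 CPM and the dNdK libraries at 23.6 and 22.3 CPM. In muscle the Rosa26 libraries stood at 9.71, 8.11, 8.72 and 6.54 CPM and the dNdK libraries at 18.3, 11.3 and 7.41 CPM. The order of the group means was dNdK aorta (22.9 ± 0.944), Rosa26 aorta (17.3 ± 6.29), dNdK muscle (12.3 ± 5.51) and Rosa26 muscle (8.27 ± 1.33), and neighbours in that order overlapped. The Rosa26 tissues did not overlap, while muscle dNdK 1 was above 3 of the 4 Rosa26 aortas. In Rosa26 mice Alpl was 2.07-fold higher in aorta (log2 1.05, SE 0.28, edgeR adjusted p = 0.0085). In dNdK mice the difference was 0.91 (SE 0.42) and did not pass (edgeR adjusted p = 0.174), although those 2 groups did not overlap either.

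Enpp1 went the other way in its estimate, without passing the test. Its counts were 19, 56, 18 and 2 in Rosa26 aorta, 12 and 16 in dNdK aorta, 14, 23, 30 and 76 in Rosa26 muscle, and 12, 23 and 11 in dNdK muscle. Its order of means was Rosa26 muscle (4.42 ± 3.43 CPM), dNdK muscle (1.96 ± 0.965), Rosa26 aorta (1.54 ± 1.11) and dNdK aorta (1.16 ± 0.0716), and all neighbours in that order overlapped. Muscle Rosa26 4, at 9.56 CPM, was more than 3 times any other muscle library. The aorta minus muscle difference was -1.43 on the log2 scale in Rosa26 mice (SE 0.61, edgeR adjusted p = 0.0636) and -0.73 in dNdK mice (SE 0.68, edgeR adjusted p = 0.489). In Rosa26 mice it passed under 3 of 17 alternatives: at -2.26 without the libraries with heart RNA (edgeR adjusted p = 0.032), at -1.995 without aorta Rosa26 2 (edgeR adjusted p = 0.0249) and with DESeq2 (adjusted p = 0.0302). It was -0.75 without muscle Rosa26 4 (edgeR adjusted p = 0.28) and -0.51 with scaling by library totals (edgeR adjusted p = 0.48).

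The log2 ratio of Enpp1 to Alpl counts uses both genes of 1 library, so that library size cancels. It stood at -3.47, -1.91, -3.56 and -5.63 in Rosa26 aorta and at -4.36 and -4.16 in dNdK aorta. In muscle it was -1.86, -1.65, -1.55 and 0.54 in Rosa26 and -2.92, -2.05 and -3.04 in dNdK. Every Rosa26 aorta was below every Rosa26 muscle, and every dNdK muscle was below every Rosa26 muscle, while the aorta genotypes overlapped. The Rosa26 aorta minus muscle difference of the means was -2.52 (two-sided exact permutation p = 0.0286, the smallest this design can give, 0.0856 adjusted over the 3 comparisons of the ratio). The dNdK minus Rosa26 difference was -1.54 in muscle (exact permutation p = 0.0571, adjusted 0.0856, smallest possible 0.0286) and -0.62 in aorta (exact permutation p = 0.6, adjusted 0.6, smallest possible 0.0667). None of the 3 passed the adjusted threshold. The ratio is of amplicon counts, so its sign carries no meaning and its differences do. Without muscle Rosa26 4 the tissue difference was -1.96 and the muscle genotype difference -0.99.

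**Figure D2:**
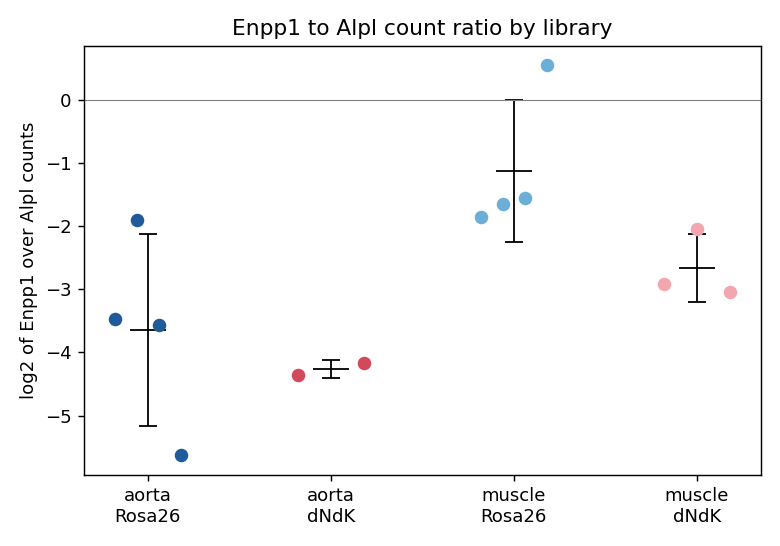
Log2 ratio of Enpp1 to Alpl counts in each library, with 0.5 added to each count; points are libraries and lines give the mean and SD of each group. The 4 Rosa26 muscles sit between -1.86 and 0.54, above the 4 Rosa26 aortas (-5.63 to -1.91) and above the 3 dNdK muscles (-3.04 to -2.05).

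Abcc6, the transporter whose loss causes pseudoxanthoma elasticum (chromosome 7, 45974110 to 46030491, minus strand), was at or under the floor throughout. Its counts were 1, 0, 1 and 0 in Rosa26 aorta, 2 and 2 in dNdK aorta, 0, 0, 1 and 0 in Rosa26 muscle and 0 in all 3 dNdK muscles. No fold is given and no comparison tested it. Whether its amplicon reads the gene was not tested, so absence of expression is not shown. Ank, a membrane protein that brings pyrophosphate or ATP out of cells, was read at 281 to 609 CPM in all 13 libraries. Its difference between the Rosa26 tissues did not pass (aorta minus muscle -0.31, SE 0.26, edgeR adjusted p = 0.334).

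Tnfrsf11b, the decoy receptor for RANK ligand (chromosome 15, 54250619 to 54278484, minus strand), had the largest fold difference between the Rosa26 tissues among the members. It was read at 76, 84, 93 and 12 counts in the Rosa26 aortas (5.60, 4.62, 6.49 and 2.56 CPM) and at 8 and 19 counts in the dNdK aortas (0.737 and 1.43 CPM). In muscle it held 0, 8, 5 and 1 counts in Rosa26 and 0, 4 and 1 in dNdK, so that 4 of 7 muscle libraries were at or below 1 count. The means were 4.82 ± 1.69 CPM in Rosa26 aorta, 1.09 ± 0.492 in dNdK aorta, 0.376 ± 0.400 in Rosa26 muscle and 0.182 ± 0.250 in dNdK muscle. Every Rosa26 aorta was above every other library, and the 2 muscle groups overlapped. In Rosa26 mice it was 11.6-fold higher in aorta (log2 3.54, SE 0.65, edgeR adjusted p = 0.000983), and 4.26 on the log2 scale without muscle Rosa26 2 (edgeR adjusted p = 0.00119). The gene passed the filter on low counts through the aorta libraries alone, so a difference was built into its passing.

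Spp1, on chromosome 5 (104435111 to 104441053, plus strand), was scattered within groups. Its counts were 63, 26, 5 and 0 in Rosa26 aorta, 5 and 13 in dNdK aorta, 8, 46, 24 and 29 in Rosa26 muscle and 13, 45 and 21 in dNdK muscle. The means were 3.15 ± 1.58 CPM in Rosa26 muscle, 3.15 ± 1.88 in dNdK muscle, 1.61 ± 2.11 in Rosa26 aorta and 0.721 ± 0.368 in dNdK aorta, in that order, and neighbours overlapped. The aorta libraries with heart RNA were the 3 highest of the 6 for Spp1, at 4.64, 1.43 and 0.981 CPM, and their summed heart markers stood at 2839, 1231 and 3060 CPM against 2.14 to 10.2 in the others. The part of that RNA in the Spp1 level was not tested. The aorta minus muscle difference was -0.90 in Rosa26 mice (SE 0.83, edgeR adjusted p = 0.375) and -2.08 in dNdK mice (SE 0.76, edgeR adjusted p = 0.11), where the groups did not overlap. In Rosa26 mice it passed under 2 of 18 alternatives: at -3.70 without the libraries with heart RNA (edgeR adjusted p = 0.0067), with 2 aorta libraries left, and at -2.18 without aorta Rosa26 1 (edgeR adjusted p = 0.0434). It was weakest at -0.01 with scaling by library totals, and -0.56 without aorta Rosa26 3.

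Runx2, the master regulator of osteoblasts (chromosome 17, 44495987 to 44814797, minus strand), varied more within Rosa26 aorta than between groups. Its counts were 42, 231, 28 and 3 in Rosa26 aorta and 14 and 17 in dNdK aorta, or 3.10, 12.7, 1.95, 0.641, 1.29 and 1.28 CPM. In muscle they were 4, 15, 15 and 6 in Rosa26 and 21, 10 and 22 in dNdK, or 0.747, 1.67, 1.47, 0.755, 4.09, 1.17 and 1.74 CPM. The order of means was Rosa26 aorta (4.60 ± 5.49), dNdK muscle (2.33 ± 1.55), dNdK aorta (1.29 ± 0.00537) and Rosa26 muscle (1.16 ± 0.479), and all neighbours overlapped. Aorta Rosa26 2 and muscle dNdK 1 were the highest of their tissues.

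Those 2 libraries were also the highest of their tissues for a list of 8 B and plasma cell markers, with summed levels of 378 and 159 CPM. The other 5 aortas ranged from 11.5 to 164 CPM and the other 6 muscles from 3.15 to 22.0 CPM. In Rosa26 aorta the list was led by Ms4a1 (42.4 ± 62.9 CPM), Jchain (39.9 ± 56.9) and Cd79b (34.3 ± 38.8), while Cd79a was at 0 in all but 1 library. The part of such cells in the Runx2 level was not tested. In Rosa26 mice Runx2 was higher in aorta by 1.99 on the log2 scale (SE 0.77, edgeR adjusted p = 0.0452) with overlapping groups. The difference was 0.74 without aorta Rosa26 2 (edgeR adjusted p = 0.295) and 0.19 without the libraries with heart RNA (edgeR adjusted p = 0.829). The call was also lost without aorta Rosa26 1 or any of the muscle Rosa26 libraries 1 to 4 (edgeR adjusted p = 0.053, 0.104, 0.0674, 0.0774 and 0.108). Runx2 overlaps Supt3 and the antisense RNA Runx2os3, both on the plus strand, and the counts used here join the strands, so reads of these genes cannot be told apart.

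**Figure D3:**
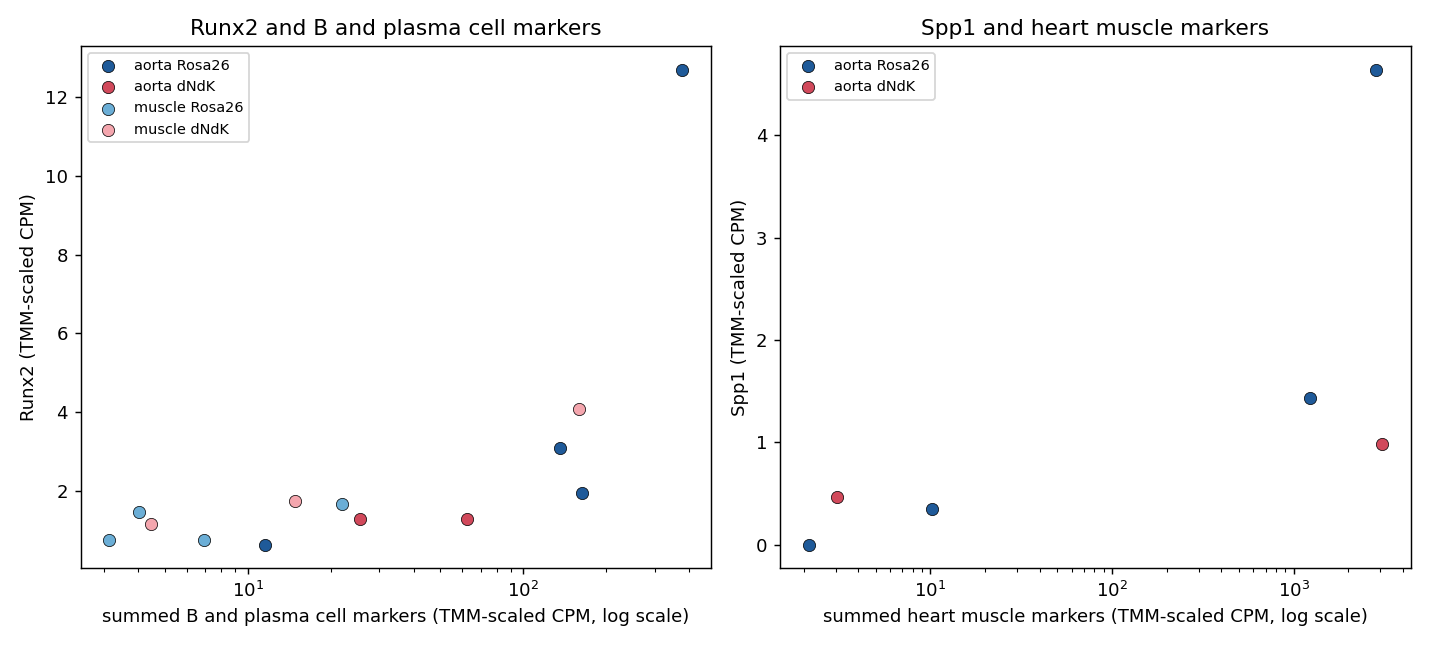
Runx2 against the summed level of 8 B and plasma cell markers in 13 libraries, and Spp1 against the summed level of 9 heart markers (6 aorta libraries), in TMM-scaled CPM with a log horizontal axis, 1 point per library. Aorta Rosa26 2 (12.7 CPM of Runx2, 378 of B and plasma cell markers) and muscle dNdK 1 (4.09 and 159) lie at the top of their tissues for both measures.

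Sox9, which directs cartilage formation (chromosome 11, 112782210 to 112787757, plus strand), was the only member lower in aorta past the threshold. It stood at 2.14, 1.92, 2.02 and 3.63 CPM in Rosa26 aorta, 2.30 and 1.89 in dNdK aorta, 2.80, 8.89, 4.31 and 4.03 in Rosa26 muscle and 2.72, 5.38 and 3.71 in dNdK muscle. The order of means was Rosa26 muscle (5.01 ± 2.67), dNdK muscle (3.94 ± 1.34), Rosa26 aorta (2.43 ± 0.807) and dNdK aorta (2.10 ± 0.295), and neighbours overlapped. Aorta Rosa26 4 was above muscle Rosa26 1, so the Rosa26 tissues overlapped, while the dNdK tissues did not. In Rosa26 mice Sox9 was lower in aorta by a log2 difference of -1.09 (SE 0.42, edgeR adjusted p = 0.0434). It lost that call without aorta Rosa26 1, 2 or 3 (edgeR adjusted p = 0.0969, 0.1 and 0.0923) and without muscle Rosa26 2, 3 or 4 (0.183, 0.065 and 0.0539). In dNdK mice the difference was -0.91 (SE 0.50, edgeR adjusted p = 0.245). A list of cartilage, bone and tendon cell markers summed to 0.645 to 2.26 CPM in the aorta libraries and 9.07 to 35.4 in the muscle libraries. In muscle the sum was led by Scx and Chad. Sp7 and Ucma from that list were at 0 in all 13 libraries and could separate no tissues. The part of such cells in the Sox9 level was not tested.

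Between the tissues of the Rosa26 mice, 7 of the 8 members could be tested. Mgp, Tnfrsf11b, Alpl and Runx2 passed as higher in aorta, Sox9 as lower, and Enpp1 and Spp1 passed in neither direction. Of all 11058 genes tested, 58.4% passed (31% higher and 27.5% lower in aorta), so 5 of 7 is near the background. These counts include Tnfrsf11b, which passed the filter through aorta alone, and without it 4 of 6 passed, 3 of them higher. The groups did not overlap for Mgp, Alpl and Tnfrsf11b, 3 of 7 with Tnfrsf11b and 2 of 6 without it, all higher in aorta, against 52.8% of all genes (26.9% higher in aorta). With DESeq2 6 members passed, and 60.2% of all genes. The members' median log2 difference was 1.05, and 0.08 without Tnfrsf11b, against 0.08 over all genes tested. Mgp, Alpl and Tnfrsf11b passed under each of 18 other settings or left-out libraries, Runx2 under 6 of 17 and Sox9 under 5 of 18. With libraries scaled by their totals in place of TMM, the median of all genes moved from 0.08 to 0.96, and the share of called genes that were higher in aorta moved from 53% to 82.8%. All 7 members kept their direction under that scaling, with Sox9 at -0.24 (edgeR adjusted p = 0.623) and Spp1 at -0.01.

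The deposited names carry 4 numbers that recur across tissues, and the labels do not say whether a number marks a mouse. Deviations from group means correlated at 0.138 to 0.275 across genes in libraries with the same number. Cross-tissue pairs matched by title number, but with different numbers in the deposited names, ranged from -0.257 to 0.285. The highest of these, aorta Rosa26 2 with muscle Rosa26 2, exceeded every pair with the same number. The correlations therefore cannot decide whether a number marks a mouse. The pairs with the same number are aorta Rosa26 1 with muscle Rosa26 3, aorta Rosa26 3 with muscle Rosa26 1, aorta Rosa26 4 with muscle Rosa26 4, and aorta dNdK 1 with muscle dNdK 3. Mgp was higher in aorta in all 4 pairs, by 1.82, 3.40, 2.57 and 2.32 on the log2 scale. Alpl was higher in all 4, by 0.85, 0.64, 1.98 and 1.65. Tnfrsf11b was higher in all 4, by 3.08, 5.10, 3.11 and 1.77. Within each genotype the tissues did not overlap for Mgp, Alpl and Tnfrsf11b, so any pairing would give this sign. In these pairs Sox9 was lower in aorta in all 4, at -0.95, -0.43, -0.14 and -0.64. Enpp1 was lower in the 3 Rosa26 pairs, at -0.97, -0.95 and -3.97, and at 0.29 in the dNdK pair. Runx2, at 0.98, 1.19, -0.18 and -0.38, and Spp1, at 0.93, -1.64, -4.31 and -1.50, differed in sign among the pairs. These log2 differences had 2 counts added, scaled to library size, so their size is uncertain where counts were near 0. Among such counts were Spp1 (0) and Enpp1 (2) in aorta Rosa26 4. Tnfrsf11b held 0 in muscle Rosa26 1 and 1 each in muscle Rosa26 4 and muscle dNdK 3. With the pairs as a block, 3 members passed in the Rosa26 mice, and Runx2 (0.86, edgeR adjusted p = 0.209) and Sox9 (-0.56, edgeR adjusted p = 0.292) did not.

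In the dNdK mice 6 members were tested between tissues, and 1 of them, Mgp, passed as higher in aorta, where 15.8% of all 11426 genes passed and 5.22% as higher. The groups did not overlap for Mgp, Alpl, Spp1 and Sox9, 4 of 6, against 57.9% of all genes. Tnfrsf11b did not pass the filter there. Runx2 was at -0.81 (SE 0.71, edgeR adjusted p = 0.455).

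**Figure D4:**
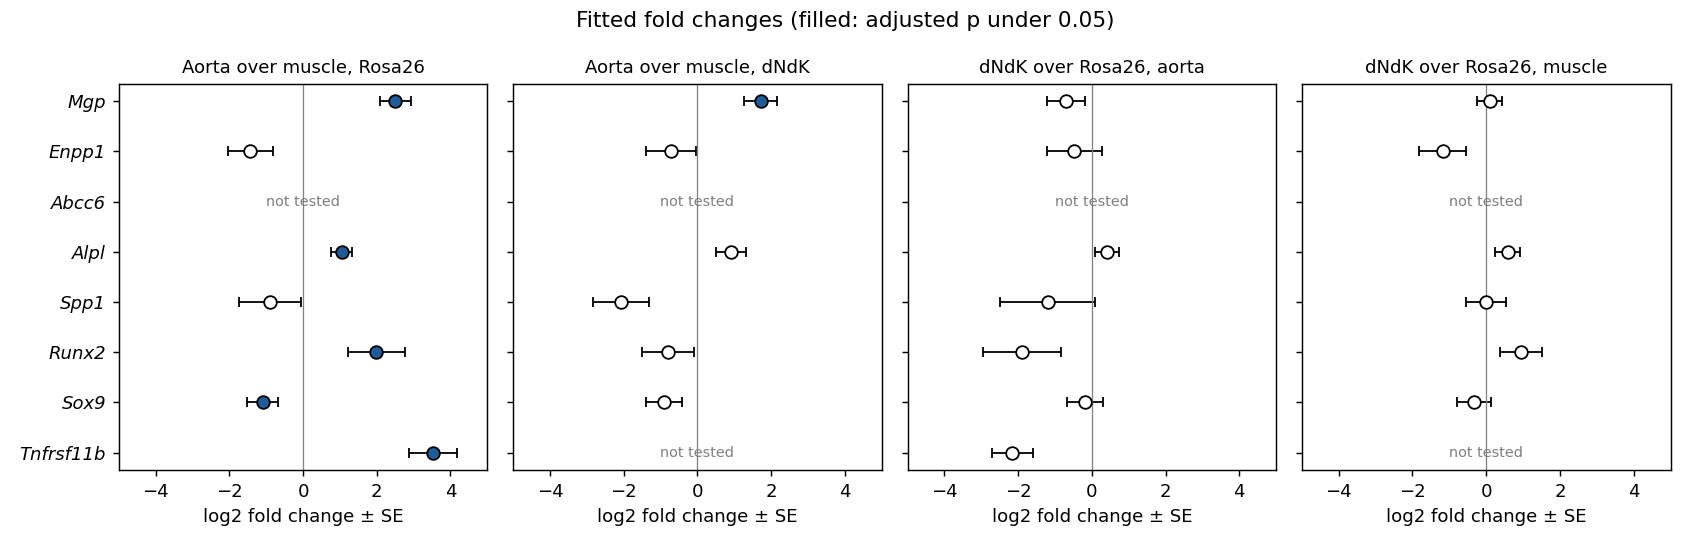
Log2 fold changes of the tested members in each comparison, with bars of 1 standard error from the edgeR quasi-likelihood test; filled points passed an adjusted p of 0.05 over all genes tested. Mgp is called in both tissue comparisons (2.50 and 1.72), and no member is called in a genotype comparison, where Tnfrsf11b in aorta (-2.16) is farthest from 0.

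The genotype comparison in aorta set 2 dNdK libraries against 4 Rosa26 libraries, and none of the 7 tested members passed. Over all 11920 genes 1 passed, 0.00839%, 713 (5.98%) had an unadjusted p under 0.05, and 13 (0.109%) passed with DESeq2. The members' median was -0.71, against -0.05 over all genes. The 7 estimates were negative for 6 members and positive for Alpl (0.42, SE 0.33, edgeR adjusted p = 0.786).

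Tnfrsf11b had the smallest p of the members. Both dNdK aortas were below all 4 Rosa26 aortas, which 8.22% of all genes tested also were. Tnfrsf11b passed the filter on low counts through the Rosa26 aortas, since the dNdK aortas alone, at 8 and 19 counts, would not have passed. A difference was thus built into its passing. The estimate was 4.46-fold lower (log2 -2.16, SE 0.56, unadjusted p = 0.0046 and adjusted p = 0.757, edgeR), and the DESeq2 adjusted p was 0.121. It was negative under each of 17 other settings or left-out libraries, from -2.69 to -1.59, and its edgeR or DESeq2 adjusted p ranged from 0.0773 to 1. Summed macrophage markers also stood lower in the dNdK aortas, at 287 and 227 CPM against 294 to 588 CPM, and summed smooth muscle markers (303 and 508 against 391 to 517 CPM) and endothelial markers (805 and 888 against 737 to 1926 CPM) overlapped. Gene by gene, 0 of 9 tested endothelial markers and 1 of 11 macrophage markers had an estimate above 0 in dNdK aorta (median log2 -0.57 and -0.80). Over all genes 5458 of 11920 were above 0. Of the B and plasma cell markers, 0 of 7 were above 0 (median log2 -3.46). Fat and heart markers went the other way, with 7 of 8 and 6 of 6 above 0. Summed heart markers stood at 3.04 CPM in dNdK 1 and 3060 CPM in dNdK 2, against 2.14 to 2839 CPM in Rosa26 aorta. The sign of the heart markers thus came through dNdK 2 alone. None of these markers passed, and their part in the Tnfrsf11b estimate was not tested. The share of unmapped reads set Rosa26 3 and 4 (7.21% and 7.45%) apart from the other 4 aortas (4.62% to 5.62%), and without those 2 libraries the estimate was -2.22 (edgeR adjusted p = 0.0773).

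Runx2, Spp1 and Mgp moved toward 0 in aorta when single libraries were left out, while the Alpl estimate stayed at 0.29 to 0.68. Runx2 was at -1.88 (SE 1.06, edgeR adjusted p = 0.757), but at -0.60 once Rosa26 2 was left out and -0.07 once all 3 libraries with heart RNA were. Spp1 was at -1.20 (SE 1.29, edgeR adjusted p = 0.833) and at 0.09 without Rosa26 1. Mgp was at -0.71 (SE 0.52, edgeR adjusted p = 0.777) and at -0.14 without Rosa26 3. Enpp1 (-0.48, SE 0.75) and Sox9 (-0.18, SE 0.49) had errors larger than their estimates.

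In muscle, 3 dNdK libraries were set against 4 Rosa26 libraries, and none of the 6 tested members passed. Of 10491 genes 0% passed with edgeR, 792 (7.55%) had an unadjusted p under 0.05, and 7 (0.0667%) passed with DESeq2. The members' median of 0.05 lay beside 0.03 for all genes, with 3 estimates above 0 and 3 below. None of the 6 had groups without overlap, which 5.97% of all genes had. Enpp1 had the largest estimate, -1.18 (SE 0.64, edgeR adjusted p = 0.696), and stood at -0.48 without muscle Rosa26 4. Runx2 was at 0.95 (SE 0.58, edgeR adjusted p = 0.729) and Alpl at 0.59 (SE 0.34, edgeR adjusted p = 0.713), and without muscle dNdK 1 they stood at 0.31 and 0.18. Sox9 (-0.33, SE 0.46), Mgp (0.10, SE 0.33) and Spp1 (-0.005, SE 0.54) had errors larger than their estimates.

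Whether the genotype difference itself differed between the tissues was tested in 1 fit of all 13 libraries, and none of the 7 tested members passed. Of 12318 genes 0% passed with edgeR, 1044 (8.48%) had an unadjusted p under 0.05, and 6 (0.0487%) passed with DESeq2. Runx2 had the smallest p of the members, with an estimate in aorta 2.80 below that in muscle (log2, SE 1.23, unadjusted p = 0.041, edgeR adjusted p = 0.583). It was -1.55 without aorta Rosa26 2, -2.17 without muscle dNdK 1 and -1.03 without the libraries with heart RNA. The other members had edgeR adjusted p from 0.741 to 0.96.

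The wider pathways were read from 8 lists of partner genes, whose counts stand beside 31% of all genes tested that were higher and 27.5% that were lower in Rosa26 aorta. In the pyrophosphate and phosphate list, 3 of 11 tested genes were higher in Rosa26 aorta and 2 lower. Ppa1, a cytosolic pyrophosphatase, stood at 457 ± 57.0 CPM in aorta and 131 ± 17.3 in muscle (log2 1.81, SE 0.19, edgeR adjusted p = 1.98e-05). Adora2a, an adenosine receptor, was 6.35-fold higher in aorta (edgeR adjusted p = 0.00052). The phosphate exporter Xpr1 and the phosphate importer Slc20a2 were lower in aorta, by log2 differences of -2.78 and -2.14 (edgeR adjusted p = 1.94e-05 and 0.000241), while the related importer Slc20a1 did not pass (-0.40, edgeR adjusted p = 0.249).

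The vitamin K list holds enzymes that activate Gla proteins such as MGP, several Gla proteins and other secreted or processing factors, and 3 of 5 tested genes were higher in aorta and none lower. The recycling enzymes Vkorc1 and Vkorc1l1 held 0 counts in all 13 libraries, as did 2785 of the 19838 genes. They could separate no tissues, and whether their amplicons read the genes was not tested, so absence of expression is not shown. Ggcx, the carboxylase of Gla proteins, was 1.86-fold higher (28.6 ± 7.74 against 15.5 ± 8.06 CPM, edgeR adjusted p = 0.0387), and Furin, a protease that trims secreted precursors, 1.91-fold (edgeR adjusted p = 0.0319). The third was Pros1, itself a Gla protein, 2.49-fold higher (edgeR adjusted p = 0.00239). In the BMP list, the ligands and receptors that drive bone formation, 7 of 22 were higher in aorta and 5 lower. The endothelial receptors Eng and Acvrl1 were higher, by 2.21 and 1.82 on the log2 scale (edgeR adjusted p = 0.000915 and 0.00175), and endothelial markers as a list were higher in 9 of 9. Bmpr1a and Bmpr1b were lower (-1.97 and -4.27, edgeR adjusted p = 9.87e-05 and 0.000359), and the ligands Bmp2 and Bmp4 did not pass (-0.30 and 0.63, edgeR adjusted p = 0.489 and 0.128).

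In the list of bone and cartilage transcription factors, 3 of 10 were higher in aorta and 5 lower, the latter led by Mef2c and Sox6 (-5.35 and -4.01, edgeR adjusted p = 1.1e-06 and 2.78e-06). Both also act in skeletal muscle fibres. In the matrix list, Eln (elastin) and Sparc were higher in aorta, 2.58-fold and 2.60-fold (edgeR adjusted p = 0.00497 for each), 3 of 10 were lower and 5 passed in neither direction. The list around RANK, the receptor that osteoprotegerin keeps from its ligand, had 6 of 9 higher in aorta and 2 lower, beside the same 31% and 27.5% of all genes. Tnfrsf11a, which encodes RANK, was 2.74-fold higher (4.91 ± 1.45 against 1.83 ± 0.312 CPM, edgeR adjusted p = 0.00464), and its ligand Tnfsf11 was read too rarely to test. The list of calcium, klotho and vitamin D genes had 1 of 5 higher and 1 lower. The osteopontin receptors had 1 of 8 higher (Itgb3, 2.88-fold, edgeR adjusted p = 0.00917) and 3 lower, among them Itgav (-1.42, edgeR adjusted p = 9.78e-05), and Cd44 did not pass (0.85, edgeR adjusted p = 0.334). None of the 8 lists had a gene past the edgeR threshold in either genotype comparison.

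The genes whose levels ran most like those of the 2 deeply read members were sought over the 13 libraries, with the tissue means removed, among 7579 genes. Grb10 (Pearson r = 0.901) and Eed (0.897) ran most like Mgp, and Mrpl35 (0.912) and Bod1 (0.879) most like Alpl. These correlations describe these libraries, which share their depth and mixture of tissues within each sample, and carry no test.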

How the data were processed

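Gene counts were measured in 13 libraries: aorta Rosa26 (4), aorta dNdK (2), muscle Rosa26 (4) and muscle dNdK (3). Per the labels' protocols, total RNA of snap-frozen tissue was amplified with a targeted mouse panel and read on an Ion Torrent sequencer, without molecular identifiers, so intervals and floors cover counting error only. The deposited values are raw read counts per gene; per the submitters' processing notes the tools were STAR 2.5.2b, edgeR 3.28.1 and limma 3.42.2 and the build was GRCm38.p6. The column of counts that joins both strands was used. Labels do not say that libraries of a group came from separate mice, so p-values measure the spread between these samples.

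Each comparison was fitted on its own libraries across all genes kept by filterByExpr (minimum count 10, minimum total 15), with TMM scaling and the quasi-likelihood test of edgeR 4.0.16 in R 4.3.3, and p-values were adjusted by Benjamini and Hochberg at 0.05. The SE was derived from each test as the size of the log2 difference divided by the root of its F. Levels were scaled over all 13 libraries together. The ratio of Enpp1 to Alpl used 0.5 added to each count and an exact permutation test. The scripts were tested on simulated data. Alternatives were other scalings, no filter, each strand alone, DESeq2 1.42.0, replicate blocks, 1 fit of all libraries and each library left out. The settings without the libraries with heart RNA, without aorta Rosa26 3 and 4, and scaling by library totals were added after seeing the data.

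The 8 members and the gene lists were chosen with earlier results of these data known. Partner genes were named by a rule: set genes of each list, then those with the smallest p. Casr, Dmp1 and Acp5 in the closing section were picked from these after their values were seen.

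Whether the libraries pair across tissues was read from numbers in the deposited names, shared by 3 pairs of Rosa26 and 1 of dNdK. Deviations from group means correlated at 0.138 to 0.275 in these 4 pairs. Cross-tissue pairs that shared only a title number ranged from -0.257 to 0.285, so the correlations cannot decide the pairing. The labels do not say that the number is the mouse.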

Additional observations from a re-analysis of the deposited data

Results flagged for a closer look

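Sox9 in aorta Rosa26 4, at 3.63 CPM, stood apart from the other 3 libraries of its group (1.92 to 2.14 CPM), by a gap over the group's range above Dixon's 95% critical value for 4 samples. Enpp1 in muscle Rosa26 4, at 9.56 CPM, stood apart from the other 3 (2.56 to 2.94 CPM) in the same way, and so did the log2 ratio of Enpp1 to Alpl in that library, at 0.54. That ratio contains the Enpp1 count, so these 2 are 1 observation. Chance sets off such a flag in about 1 in 20 groups.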

How the results depend on the processing

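Low counts limit Abcc6 everywhere and Tnfrsf11b in muscle, and the 2 dNdK aortas limit every comparison that uses them. Between Rosa26 tissues 5 members were called. 3 were called without the filter, on strand 1, on strand 2, with the replicate block by title number and with the replicate block by the number in the deposited names, and 3 to 5 when each library was left out. In dNdK mice the main count of 1 became 2 with library totals, 0 on strand 1 and 0 to 1 with each library left out. The members called in both genotype comparisons and the interaction stayed at 0 under every setting run. Over all genes the aorta genotype count of 1 became 163 with the block by title number, 30 without the libraries with heart RNA, 264 without Rosa26 1 and 2, 179 without Rosa26 3 and 4 and 13 with DESeq2, the dNdK tissue count of 1801 ranged from 322 to 3334, the muscle count of 0 reached 7 and the interaction count of 0 reached 6 with DESeq2. In that dNdK comparison library totals moved the share of higher calls from 33.1% to 68.4%. Libraries with the same title number had correlations of both signs (-0.335 to 0.285). Either block ended the Rosa26 calls of Runx2 and Sox9 and changed no other member's call.

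The tissue difference of the Enpp1 to Alpl ratio was -2.13 on strand 2 (exact permutation p = 0.0857) and -3.09 to -1.85 with each library left out. The muscle genotype difference was -1.83 on strand 1 (exact permutation p = 0.0286, unadjusted).

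Signs reversed only for estimates that were not called. In aorta, Sox9 was 0.28 on strand 2, 0.029 with the replicate block by title number and 0.036 without Rosa26 3 and 4. Enpp1 was 0.31 without the libraries with heart RNA and 0.33 without Rosa26 1 and 2. With each library left out, Sox9 ranged from -0.35 to 0.038, Enpp1 from -0.74 to 0.11 and Spp1 from -1.82 to 0.087. In muscle, Spp1 was 0.10 with library totals and 0.075 with the replicate block, Mgp was -0.15 with that block, and with each library left out Spp1 ranged from -0.60 to 0.33, Sox9 from -0.61 to 0.10 and Mgp from -0.37 to 0.29. In the interaction, Sox9 was -0.091 with library totals and -0.63 on strand 1, Tnfrsf11b was 0.054 on strand 1 and Spp1 was 0.96 without the libraries with heart RNA. With each library left out, Spp1 ranged from -1.84 to 0.11, Alpl from -0.38 to 0.24, Sox9 from -0.27 to 0.45 and Tnfrsf11b from -1.85 to 0.52. The causes were not tested.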

Other observations

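Several partner genes of mineral balance were distributed between the tissues with no overlap. This also held for 52.8% of all genes tested in the Rosa26 mice and 57.9% in the dNdK mice. Casr, the calcium-sensing receptor, held 0 counts in all 6 aorta libraries and 287 to 540 counts in each of the 7 muscle libraries. In the Rosa26 mice this made it at least 925-fold higher in muscle, taken against 3 counts over the 4 aortas. Dmp1, a matrix protein of osteocytes, held 0 to 2 counts per aorta library and 49 to 96 per muscle library. Its ratio of muscle to aorta in Rosa26 mice was 226, with an exact 95% counting interval of 61.9 to 1873. Casr and Dmp1 passed the filter on low counts through the muscle libraries alone, so a difference was built into their passing.

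Acp5, the tartrate-resistant acid phosphatase of osteoclasts and macrophages, stood at 219 to 287 CPM in all 6 aortas. In muscle it stood at 2.24 to 15.1 CPM in 6 libraries and at 201 CPM in dNdK 3, the muscle library with the high fat markers. The part of fat in that level was not tested. Slc20a2, a phosphate importer, stood at 163 to 256 CPM in the Rosa26 muscles and at 93.8, 106 and 131 CPM in the dNdK muscles. These groups did not overlap, which held for 5.97% of all 10491 genes tested. Slc20a2 did not pass (log2 -0.86, SE 0.24, unadjusted p = 0.00546, edgeR adjusted p = 0.656). Of all genes in that comparison, 7.55% had an unadjusted edgeR p under 0.05.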
